A study of Homo sapiens with 12 samples.

Results

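Genes of amino acid uptake were followed through inhibition of AKT and EZH2 in prostate cancer cells. They were the rows named SLC7A1, SLC7A5, SLC7A11, SLC3A2, SLC1A4, SLC1A5, SLC38A1, SLC38A2, SLC6A9 and SLC43A1, 10 of 58735 genes in the count table, and all 10 were among the 16646 genes with enough reads to be tested. RNA came from C4.2B cells, a castration-resistant prostate cancer line derived from LNCaP. There were 4 arms of 3 libraries each: vehicle (DMSO), ipatasertib at 0.25 μM, which inhibits AKT (AKTi), tazemetostat at 1 μM, which inhibits EZH2 (EZH2i), and the pair together (combination). EZH2i and combination cells received tazemetostat for 6 days before cotreatment, whereas DMSO and AKTi cells received vehicle in that time. Cells of every arm were harvested 24 hours after the final treatment in medium with 10% charcoal-stripped FBS. The single agents thus differed in length of exposure as well as in target, which cannot be told apart, and all libraries are of 1 cell line.

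Amino acids cross the plasma membrane on carriers of several families that differ in substrate, in coupling to sodium and in whether they exchange one amino acid for another. SLC7A5 (LAT1) imports leucine and other large neutral amino acids, and SLC7A11 (xCT) imports cystine in exchange for glutamate. Each is a light chain that reaches the cell surface bound to the heavy chain SLC3A2 (CD98). Amino acid supply is read inside the cell by mTORC1, which AKT also activates, and by the kinase GCN2, whose arm through the transcription factor ATF4 is known to switch on many carrier genes. EZH2 is the enzyme of the polycomb complex PRC2 that trimethylates lysine 27 of histone H3, a mark of silenced genes.

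All 10 transporters were lower with EZH2i than with DMSO, and all 10 were higher with the combination than with EZH2i. The summed level of the 10 genes was 3167 ± 108 CPM in DMSO, 2845 ± 53.1 with AKTi, 1364 ± 25.9 with EZH2i and 3314 ± 62.7 with the combination (mean ± SD, n = 3 per arm), where CPM is the count scaled to the TMM-adjusted size of its library. The combination libraries thus lay in the DMSO range or above it, from 3264 to 3385 CPM against 3066 to 3281, although each combination culture had the same tazemetostat exposure as the EZH2i cultures. Levels compare libraries here, since CPM is not divided by gene length. In bulk RNA, less transcript per cell and fewer cells with the transcript cannot be told apart.

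**Figure D1:**
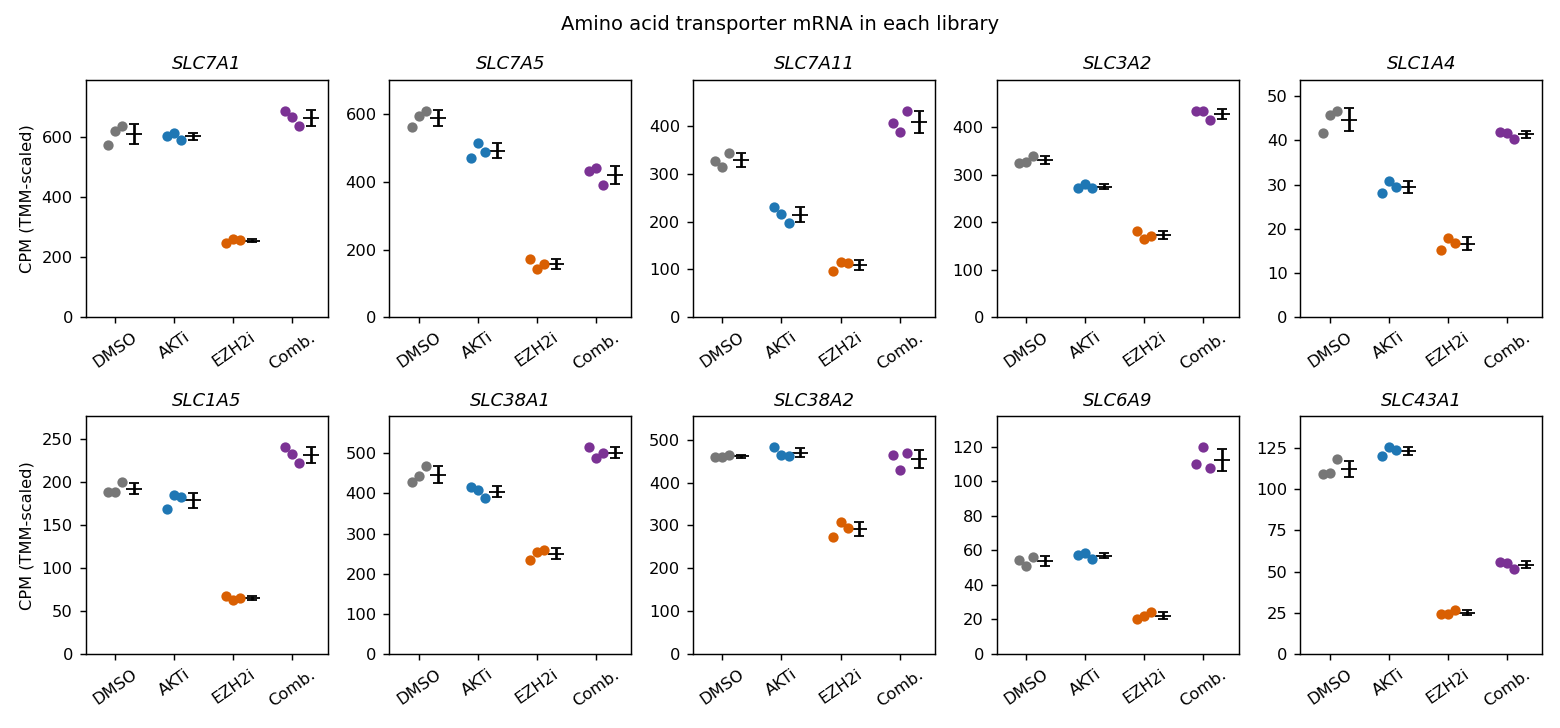
Level of each of the 10 transporters in every library, as CPM after TMM scaling on a linear axis from 0, with each point 1 library and the bar beside each arm the mean ± SD of 3 libraries. The EZH2i points are below the DMSO points in all 10 panels, and the combination points are above the EZH2i points in all 10.

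Library totals ran from 14133755 to 22276417 counts, so that counts per library for the 10 genes ran from 227 for SLC1A4 with EZH2i to 13529 for SLC7A1 with the combination. The chi-square between libraries of an arm was 2.63 to 8.13 per gene, above sampling noise, and each was kept as a replicate. The plates of an arm were seeded in triplicate a day before dosing and nothing says that the cultures were separate before then, so p-values measure the spread between these plates, which may be technical. Markers of luminal prostate epithelium were expressed, with KLK3 at 1338 CPM or more in every library. Of the basal markers, KRT5 had 0 counts in all 12, TP63 1 at most and KRT14 7 at most. Of the leukocyte markers, CD3E had 0 counts in all 12, LYZ 8 at most, CD68 9 at most and PTPRC 20 at most. Among both lists only PTPRC passed the filter. It was called higher with EZH2i than with AKTi (log2 fold change 2.97, adjusted p = 0.015, edgeR quasi-likelihood test), though the libraries overlapped. The fibroblast list had 1 of 4 genes above the filter, COL1A1, whose summed list level was 4.36 to 7.0 CPM in DMSO, 4.27 to 6.40 with AKTi, 15.7 to 18.1 with EZH2i and 9.79 to 15 with the combination, while COL1A2 had 2 counts at most. Its part in the results was not tested. Among all genes called, the share that was higher depended on the scaling. With EZH2i it was 5421 of 10670 by TMM and 6630 of 10823 by library size only, and for EZH2i against AKTi 4226 of 8396 and 5104 of 8397. For the combination against AKTi it was 5344 of 10687 and 6544 of 10874.

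The sequence before the start of these genes is shown for the motifs of factors known to bind carrier genes. RefSeq windows on GRCh38.p14 gave the 250 bases before the start for 9 of the 10 genes, in 16 windows because some genes have several starts. SLC7A11 was not among them. The E-box CACGTG, which MYC-family proteins bind, occurred in 3 of these 16 windows, each of another gene, and in 6.34% of all 35116 windows. The element TGATGNAA, to which ATF4 binds with C/EBP partners, occurred in 1 of the 16 and in 3.14% of all windows. The core TGACNNNGC of the antioxidant response element, bound by NFE2L2 (NRF2), occurred in 3 of the 16, each of another gene, and in 10.9% of all windows. Both strands were searched, and the matches did not overlap each other. SLC7A5 and SLC43A1, both leucine carriers, each had 1 E-box, which capitals mark below, and the E-box of SLC1A5 is given after them. Whether these motifs bear on the changes of the genes was not tested. The SLC7A5 stretch covers chr16:87869508-87869757 and the SLC43A1 stretch chr11:57515787-57515952, both on the minus strand and both outside the annotated gene, with the E-box beginning 130 and 112 bases before the RefSeq start.
SLC7A5: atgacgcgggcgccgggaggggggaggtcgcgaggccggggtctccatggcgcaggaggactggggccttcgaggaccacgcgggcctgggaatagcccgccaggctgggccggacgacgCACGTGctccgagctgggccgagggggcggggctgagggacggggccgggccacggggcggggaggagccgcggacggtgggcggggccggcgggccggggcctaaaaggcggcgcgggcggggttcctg
SLC43A1: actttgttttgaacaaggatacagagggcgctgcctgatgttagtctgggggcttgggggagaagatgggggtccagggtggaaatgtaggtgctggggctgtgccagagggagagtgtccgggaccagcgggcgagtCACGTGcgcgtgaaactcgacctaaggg

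For the other matches, 30 bases around the motif are shown, with the motif in capitals. The SLC1A5 starts inside the gene held an E-box at chr19:46787326-46787355, an antioxidant core at chr19:46787385-46787414 read on the opposite strand and the ATF4 element at chr19:46784893-46784922, all written on the minus strand. The SLC3A2 match, before a start inside the gene, lay at chr11:62881652-62881681 on the plus strand and the SLC7A1 match at chr13:29595754-29595783 on the minus strand. No match was found in these windows of SLC1A4, SLC38A1, SLC38A2 or SLC6A9. A match is a string of letters, not a measured site.
SLC1A5 E-box: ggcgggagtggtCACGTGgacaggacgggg
SLC1A5 antioxidant core: cctggatcttGCGAGGTCAgctcccgctcc
SLC1A5 ATF4 element: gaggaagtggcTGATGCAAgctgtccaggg
SLC3A2 antioxidant core: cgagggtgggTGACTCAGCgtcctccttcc
SLC7A1 antioxidant core: tgcccggcggTGACGCGGCcgagcgggccg

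Per gene length, the leucine carrier SLC7A5 was the most abundant of the 10 in DMSO and the neutral carrier SLC1A4 the least. Levels as RPKM, reads per kilobase of the deposited gene length on the same scale, were 124 ± 5.1 for SLC7A5, 78.9 ± 4.3 for SLC7A1, 69.8 ± 0.40 for SLC38A2, 63.8 ± 1.5 for SLC3A2 and 57.6 ± 1.9 for SLC1A5 (mean ± SD, n = 3). Below these came 44.6 ± 2.0 for SLC38A1, 34.1 ± 1.5 for SLC7A11, 31.8 ± 1.4 for SLC43A1, 10.4 ± 0.52 for SLC6A9 and 6.44 ± 0.38 for SLC1A4. Neighbours in this order did not overlap between libraries, except SLC7A11 and SLC43A1. With AKTi the neighbours SLC1A5 and SLC3A2 overlapped, at 53.6 ± 2.5 and 53.0 ± 1.0 RPKM. With EZH2i the system A carrier SLC38A2 stood first at 44.2 ± 2.5 RPKM, and SLC3A2, SLC7A5 and SLC7A1 followed with overlapping libraries at 33.3 ± 1.6, 33.3 ± 3.0 and 33.0 ± 0.71. With the combination SLC7A5, SLC7A1 and SLC3A2 formed an overlapping top group at 88.7 ± 5.8, 85.9 ± 3.4 and 82.5 ± 2.1 RPKM. SLC6A9, ninth in the other arms, passed SLC43A1 in the combination with 21.8 ± 1.2 against 15.3 ± 0.65 RPKM.

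**Figure D2:**
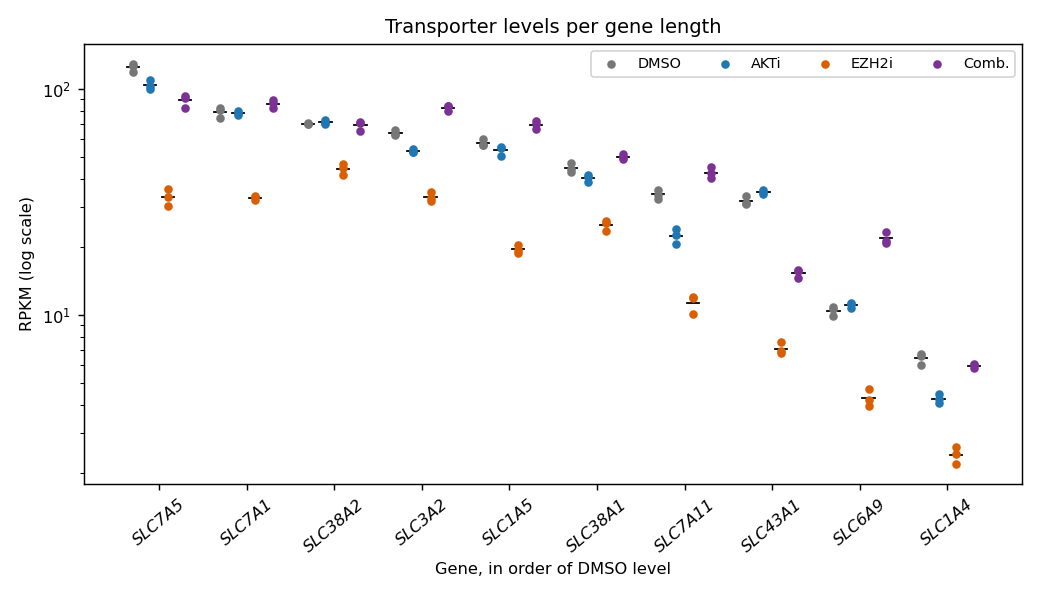
RPKM of the 10 transporters on a log axis, in the order of their DMSO means, with each point 1 library, colours the 4 arms and black ticks the arm means. SLC7A5 leads in DMSO with a mean of 124 RPKM, and in the EZH2i arm it lies among SLC3A2 and SLC7A1 near 33 RPKM.

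EZH2 inhibition alone was compared with DMSO first. Calls were made by edgeR's quasi-likelihood test where the p-value, after Benjamini-Hochberg adjustment over all 16646 genes, was under 0.05. By that rule 10 of 10 transporters were lower, against 31.5% of all genes tested, and 0 were higher, against 32.6%. The 10 genes and the other gene lists below were chosen with earlier results of these data known. Their counts beside the shares of all genes are thus description and do not test the lists as sets. No transporter was higher at an unadjusted p-value under 0.05 or by DESeq2 either. The median log2 fold change was -1.35 over the 10 genes and 0.03 over all genes. SLC43A1 fell most and SLC38A2 least, and in all 10 genes the highest EZH2i library was below the lowest DMSO library.

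AKT inhibition alone moved fewer of them and by less. Against DMSO, 5 of 10 were lower (21.9% of all genes) and 0 of 10 higher (20.6%), with a median log2 fold change of -0.12 against 0.01 for all genes. By DESeq2 the counts were also 5 and 0, and 1 transporter, SLC43A1, was higher at an unadjusted p-value under 0.05. The 5 that fell were the cystine carrier SLC7A11, the neutral carrier SLC1A4, the heavy chain SLC3A2, the leucine carrier SLC7A5 and the glutamine carrier SLC38A1.

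The combination was then set against each other arm. Against DMSO 6 of 10 were higher (38.0% of all genes) and 2 lower (35.2%), with a median of 0.14 against 0.06. The count of 6 ran from 4 to 7 over the alternative settings and was 4 without DMSO A, DMSO B or AKTi A, and the count of 2 became 3 without EZH2i A. Against AKTi 7 were higher (32.1%) and 2 lower (32.1%), with a median of 0.34 against 0.04. Against EZH2i 10 were higher (21.1%) and 0 lower (25.7%), with a median of 1.35 against -0.01. There was also no lower transporter against EZH2i by unadjusted p-value or by DESeq2. Between the single agents, 10 of 10 were lower with EZH2i than with AKTi (25.1%) and 0 higher (25.4%), and again 0 were higher by unadjusted p-value or DESeq2. That median was -1.11 against 0.02. These comparisons share libraries, each arm entering several of them, so their counts are not independent. The same EZH2i libraries enter every comparison in which all 10 transporters were called in the same direction, and also the interaction below.

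The interaction term asks whether the effect of AKTi in tazemetostat-treated cells differed from its effect in vehicle-treated cells. It was positive for 10 of 10 transporters (10.7% of all genes) and negative for 0 (17.5%, with 0 at an unadjusted p-value under 0.05 and 0 by DESeq2). The median was 1.63 on the log2 scale against -0.05 for all genes. By the sum of the single-agent changes, every transporter would have been below DMSO in the combination, between -0.63 for SLC38A2 and -2.20 for SLC7A11. The observed changes lay between -1.05 for SLC43A1 and 1.06 for SLC6A9. All calls of the 10 genes for EZH2i against DMSO, the combination against EZH2i, EZH2i against AKTi and the interaction held in each alternative setting tried, including each library left out in turn. The fit to the arms compared alone was not run for the interaction, which uses all 4 arms.

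**Figure D3:**
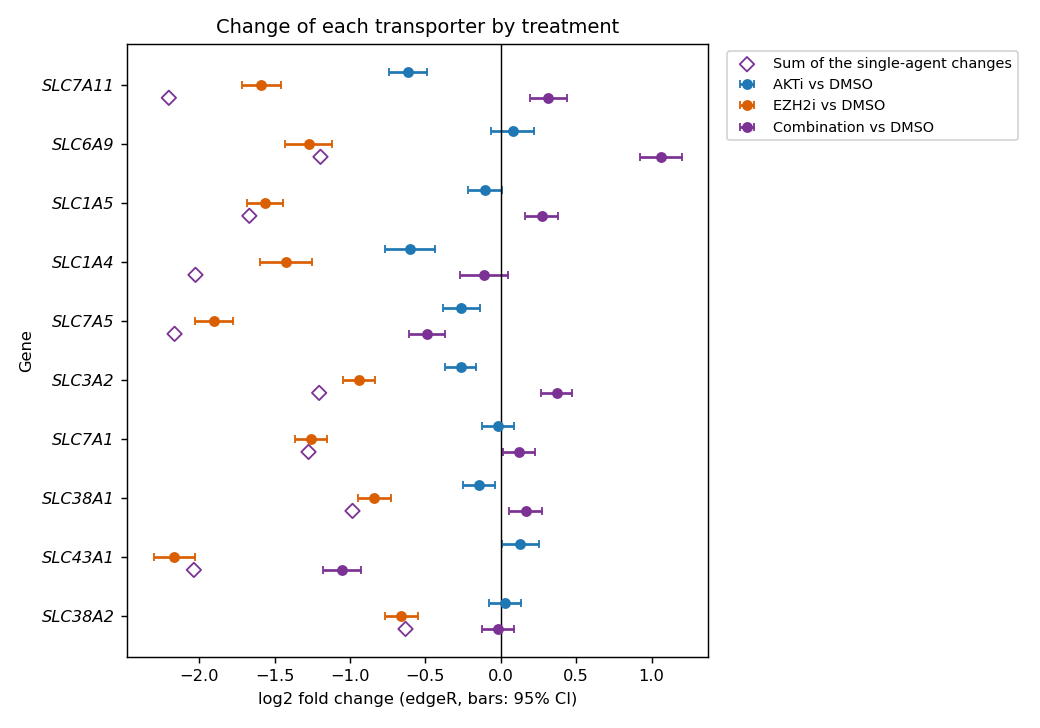
Fitted log2 fold change against DMSO for each transporter with AKTi, EZH2i and the combination (circles, bars 95% confidence intervals), with open diamonds at the sum of the 2 single-agent changes and genes ordered by the interaction term. Every combination circle lies to the right of its diamond, by 0.61 for SLC38A2 up to 2.52 for SLC7A11.

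Among the chains of the CD98 heterodimers, the heavy chain SLC3A2 (ENSG00000168003, chr11:62856102-62888875, plus strand) was lowered by each single agent and was above DMSO with both. SLC3A2 stood at 325, 327 and 339 CPM in the DMSO libraries and 272, 280.4 and 271 with AKTi. It stood at 182, 165 and 171 CPM with EZH2i and 433, 434 and 415 with the combination. The 4 arms did not overlap, with the order EZH2i, AKTi, DMSO, combination from low to high. SLC3A2 was 1.92-fold lower with EZH2i (log2 fold change -0.94 ± 0.052 SE, adjusted p = 7.2e-18) and 1.20-fold lower with AKTi (log2 fold change -0.27 ± 0.052 SE, adjusted p = 5.6e-05), edgeR quasi-likelihood test throughout. With the combination it was 1.29-fold higher than in DMSO (log2 fold change 0.37 ± 0.051 SE, adjusted p = 4.5e-08), 1.56-fold higher than with AKTi and 2.48-fold higher than with EZH2i. Its interaction term was 1.58 (adjusted p = 5.5e-19).

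SLC7A5 (ENSG00000103257, chr16:87830023-87869488, minus strand), the leucine-importing light chain, had the largest fall with EZH2i of the 3 CD98 genes and did not return to the DMSO level. It stood at 563, 596 and 611 CPM in DMSO and 472, 516 and 489.6 with AKTi. The EZH2i libraries held 172, 144 and 158 CPM and the combination libraries 432, 441 and 389.7. No arm overlapped another, and the combination lay between EZH2i and AKTi. SLC7A5 was 3.74-fold lower with EZH2i (log2 fold change -1.90 ± 0.062 SE, adjusted p = 9.1e-25), 1.20-fold lower with AKTi (log2 fold change -0.26 ± 0.059 SE, adjusted p = 0.00042) and 1.40-fold lower with the combination (log2 fold change -0.49 ± 0.059 SE, adjusted p = 3.0e-09). The combination was 2.67-fold above EZH2i (log2 fold change 1.42 ± 0.061 SE, adjusted p = 7.9e-21). The difference from AKTi was small (log2 fold change -0.23 ± 0.059 SE, adjusted p = 0.0011) and was lost when libraries were scaled by library size only (adjusted p = 0.17) or by upper quartile (0.13). The interaction term was 1.68 (adjusted p = 6.6e-18).

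SLC7A11 (ENSG00000151012, chr4:138164097-138242349, minus strand), the cystine-importing light chain, had the largest interaction of the 10 genes, rank 64 of 16646 among all genes tested. It stood at 327, 315 and 344 CPM in DMSO and 231, 217 and 198 with AKTi. With EZH2i it stood at 97.6, 116 and 114 CPM and with the combination at 407, 388 and 433. Every combination library was above every DMSO library, and every library of either single agent was below them. SLC7A11 was 3.01-fold lower with EZH2i (log2 fold change -1.59 ± 0.064 SE, adjusted p = 5.8e-22) and 1.53-fold lower with AKTi (log2 fold change -0.61 ± 0.062 SE, adjusted p = 3.1e-10). With the combination it was 1.24-fold higher than in DMSO (log2 fold change 0.32 ± 0.061 SE, adjusted p = 1.9e-05) and 3.75-fold higher than with EZH2i (log2 fold change 1.91 ± 0.064 SE, adjusted p = 5.1e-24). The interaction term was 2.52 with a 95% confidence interval of 2.34 to 2.70 (adjusted p = 3.5e-22). The antisense gene SLC7A11-AS1 overlaps it and had 60 counts at most, against at least 1458 for SLC7A11.

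SLC43A1 (ENSG00000149150, chr11:57484534-57515786, minus strand), or LAT3, carries leucine and other branched-chain amino acids without a heavy chain. It stood at 109, 110.1 and 118 CPM in DMSO and 120.4, 125 and 124 with AKTi. With EZH2i it stood at 24.4, 24.0 and 26.6 CPM and with the combination at 55.6, 55.3 and 51.5. The EZH2i and combination libraries lay apart from each other and below the rest, and the AKTi libraries lay just above DMSO. Its 4.49-fold fall with EZH2i was the largest among the 10 (log2 fold change -2.17 ± 0.068 SE, adjusted p = 2.6e-25), 40th from the bottom of all 16646 genes. With the combination it was 2.08-fold lower than DMSO (log2 fold change -1.05 ± 0.063 SE, adjusted p = 1.5e-17) and 2.16-fold higher than with EZH2i (log2 fold change 1.11 ± 0.069 SE, adjusted p = 4.5e-16). With AKTi alone the difference did not pass the test (log2 fold change 0.13 ± 0.060 SE, adjusted p = 0.082), but passed by library size only (adjusted p = 0.010), upper quartile (0.0087), a fit to the arms compared (0.030) and without DMSO replicate C (0.044). The interaction term was 0.98 (adjusted p = 1.3e-10).

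The balance of light and heavy chain transcripts shifted with EZH2i, as the ratio of RPKM within each library shows. SLC7A5 per SLC3A2 was 1.89, 1.99 and 1.97 in DMSO and 1.89, 2.01 and 1.97 with AKTi, but 1.03, 0.949 and 1.01 with EZH2i and 1.09, 1.11 and 1.03 with the combination. Both tazemetostat arms lay well below both arms without it. SLC7A11 per SLC3A2 moved otherwise, from 0.534 ± 0.015 in DMSO to 0.421 ± 0.031 with AKTi and 0.341 ± 0.046 with EZH2i (mean ± SD, n = 3). With the combination it was 0.515 ± 0.041, a range that overlapped DMSO. The sum of the 6 SLC7 light chains that pair with SLC3A2, which adds SLC7A6, SLC7A7, SLC7A8 and SLC7A10, was 2.92 ± 0.052 times SLC3A2 in DMSO, 2.90 ± 0.039 with AKTi, 2.23 ± 0.041 with EZH2i and 1.82 ± 0.0093 with the combination. Those last libraries were the lowest and did not overlap any other arm. SLC7A8 (LAT2) was a sizeable part of that sum at 24.2 ± 1.1 RPKM in DMSO, 24.0 ± 0.73 with AKTi, 27.9 ± 0.80 with EZH2i and 17.9 ± 1.0 with the combination. Unlike SLC7A5 and SLC7A11, it was higher with EZH2i than with DMSO (log2 fold change 0.20 ± 0.056 SE, adjusted p = 0.0019, edgeR quasi-likelihood test). With 3 libraries against 3, an exact permutation test of such a ratio cannot give a two-sided p-value below 0.1, so none was run.

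**Figure D4:**
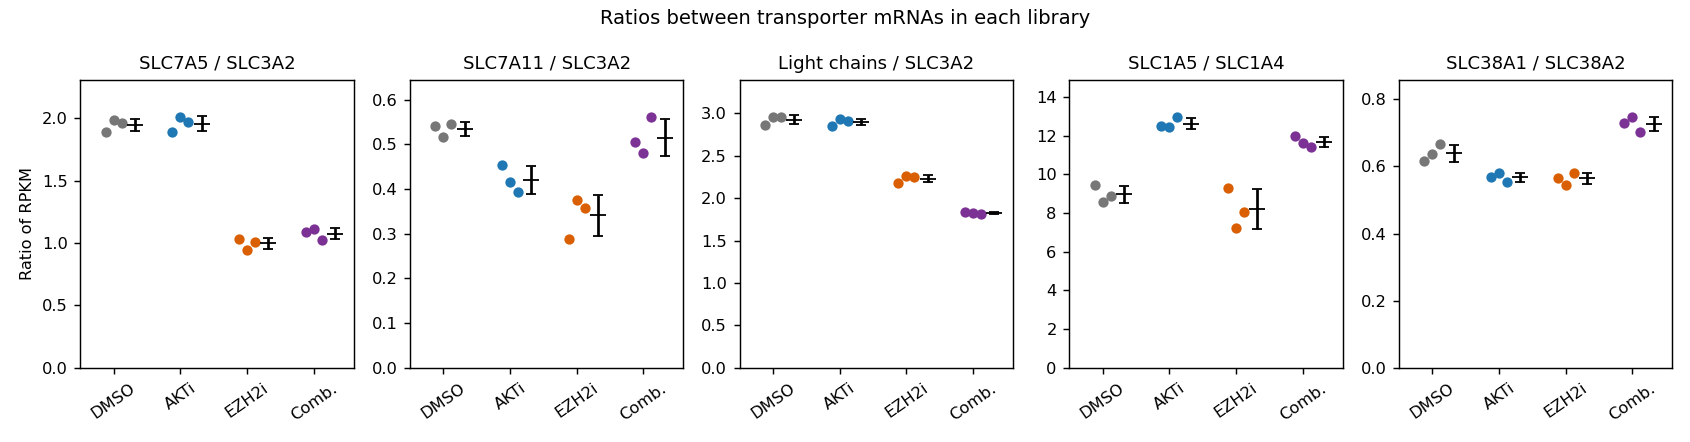
Ratios of RPKM between pairs of transporters, and of the summed 6 light chains to SLC3A2, in each library, with bars at the mean ± SD of 3 libraries on linear axes from 0. SLC7A5 per SLC3A2 is near 1.95 in DMSO and AKTi and near 1.00 to 1.07 in the arms with tazemetostat, while the DMSO and combination points of SLC7A11 per SLC3A2 overlap.

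SLC7A1 (ENSG00000139514, chr13:29509410-29595688, minus strand), or CAT1, imports the cationic amino acids arginine and lysine and is the second most abundant of the 10 in DMSO by RPKM. It stood at 570.4, 617 and 635 CPM in DMSO and 600.3, 612 and 589 with AKTi. In the EZH2i arm it was 248, 259 and 255 CPM and in the combination 686, 663 and 634. EZH2i stood alone below the other arms, and the combination overlapped DMSO. SLC7A1 was 2.39-fold lower with EZH2i (log2 fold change -1.26 ± 0.053 SE, adjusted p = 2.3e-21) and 2.60-fold higher with the combination than with EZH2i (log2 fold change 1.38 ± 0.053 SE, adjusted p = 2.8e-22). With AKTi its log2 fold change was -0.017 (95% confidence interval -0.12 to 0.089), and its sign turned with the scaling. The combination was above DMSO by only 0.12 (SE 0.052, adjusted p = 0.034). That call was lost by DESeq2 (adjusted p = 0.062), by DESeq2's size factors in edgeR (0.063), with a looser filter of at least 1 count (0.25) and with a fit to the arms compared (0.099). It was also lost without DMSO A (0.27) or B (0.19), AKTi A (0.29), B (0.19) or C (0.18), EZH2i A (0.24) or C (0.088), and combination A (0.17) or B (0.087). Against AKTi the combination was higher by 0.14 (adjusted p = 0.019), a call lost with the looser filter (0.15) and without AKTi A (0.26), B (0.058) or C (0.13), EZH2i A (0.13), or combination A (0.12) or B (0.058). The interaction term was 1.40 (adjusted p = 2.5e-17).

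The SLC1 pair are exchangers of small neutral amino acids. SLC1A5 (ENSG00000105281, chr19:46774883-46788594, minus strand), or ASCT2, is a main route of glutamine entry in many tumour lines. It stood at 189, 188 and 199 CPM in DMSO and 169, 184 and 182 with AKTi. With EZH2i it stood at 67.7, 62.5 and 64.8 CPM and with the combination at 240.0, 233 and 221. The EZH2i libraries were far below all others, and the combination libraries were the highest. SLC1A5 was 2.95-fold lower with EZH2i (log2 fold change -1.56 ± 0.058 SE, adjusted p = 5.8e-23) and 1.21-fold higher with the combination (log2 fold change 0.27 ± 0.055 SE, adjusted p = 4.0e-05). The combination was 3.56-fold above EZH2i (log2 fold change 1.83 ± 0.058 SE, adjusted p = 1.1e-24), and the interaction term was 1.94 (adjusted p = 2.2e-20). The AKTi libraries were all below DMSO, but the difference did not pass the test (log2 fold change -0.10 ± 0.056 SE, adjusted p = 0.13).

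SLC1A4 (ENSG00000115902, chr2:64988477-65023865, plus strand), or ASCT1, which carries serine, alanine and cysteine, was the least abundant of the 10 by RPKM in each arm. It stood at 41.7, 45.7 and 46.7 CPM in DMSO and 28.1, 30.9 and 29.3 with AKTi. EZH2i gave 15.2, 18.0 and 16.7 CPM and the combination 41.8, 41.7 and 40.4. Both single agents lay below DMSO without overlap, and the combination overlapped DMSO at its lower edge. SLC1A4 was 2.68-fold lower with EZH2i (log2 fold change -1.42 ± 0.086 SE, adjusted p = 5.8e-17) and 1.52-fold lower with AKTi (log2 fold change -0.60 ± 0.082 SE, adjusted p = 1.7e-07). The combination was 2.48-fold above EZH2i (log2 fold change 1.31 ± 0.085 SE, adjusted p = 1.7e-15) and 1.40-fold above AKTi (log2 fold change 0.49 ± 0.082 SE, adjusted p = 2.9e-06). Against DMSO it did not pass the test (log2 fold change -0.11 ± 0.079 SE, adjusted p = 0.19, 95% confidence interval -0.27 to 0.046), its sign turned with the scaling, and it was called without EZH2i replicate A (adjusted p = 0.041). The interaction term was 1.91 (adjusted p = 2.3e-15). The RPKM ratio of SLC1A5 to SLC1A4 was 8.96 ± 0.44 in DMSO and 8.19 ± 1.0 with EZH2i, but 12.6 ± 0.28 with AKTi and 11.7 ± 0.27 with the combination. The libraries with ipatasertib were thus all above those without it.

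The system A carriers SLC38A1 and SLC38A2 take up glutamine and other small neutral amino acids with sodium, and moved least among the 10 with EZH2i. SLC38A1 (ENSG00000111371, chr12:46183063-46270017, minus strand), or SNAT1, stood at 428, 444 and 468 CPM in DMSO and 417, 408 and 389 with AKTi. EZH2i libraries had 235, 254 and 260.1 CPM and combination libraries 515, 487 and 502. The arms did not overlap, with EZH2i lowest and the combination highest. SLC38A1 was 1.79-fold lower with EZH2i (log2 fold change -0.84 ± 0.054 SE, adjusted p = 4.0e-16) and 2.01-fold higher with the combination than with EZH2i (log2 fold change 1.00 ± 0.054 SE, adjusted p = 6.2e-18). The interaction term was 1.15 (adjusted p = 1.3e-14). Its fall with AKTi (log2 fold change -0.14 ± 0.053 SE, adjusted p = 0.028) was lost with the looser filter (adjusted p = 0.062), by library size only (0.21), by upper quartile (0.19), and without DMSO C (0.13) or AKTi C (0.079). Its rise with the combination over DMSO (log2 fold change 0.17 ± 0.053 SE, adjusted p = 0.0058) was lost with the looser filter (adjusted p = 0.065) and without DMSO A (0.059), DMSO B (0.095) or AKTi A (0.078).

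SLC38A2 (ENSG00000134294, chr12:46358189-46372867, minus strand), or SNAT2, differed from DMSO with EZH2i but not detectably with AKTi or the combination. It stood at 459, 460.3 and 464 CPM in DMSO and 482, 464 and 463 with AKTi. In EZH2i libraries its level was 274, 307 and 295 CPM and in combination libraries 464, 430.5 and 470.1. The EZH2i libraries were below the rest, and the other 3 arms overlapped. SLC38A2 was 1.58-fold lower with EZH2i (log2 fold change -0.66 ± 0.053 SE, adjusted p = 2.0e-13) and 1.56-fold higher with the combination than with EZH2i (log2 fold change 0.64 ± 0.053 SE, adjusted p = 1.2e-12). The combination differed from DMSO by -0.019 (95% confidence interval -0.13 to 0.087, adjusted p = 0.75). By library size only that value was 0.18 (adjusted p = 0.0028) and by upper quartile 0.17 (0.0045), settings that moved the median of all genes from 0.06 to 0.26 and 0.25. The interaction term, 0.61 (adjusted p = 4.6e-08), was the smallest of the 10. The RPKM ratio of SLC38A1 to SLC38A2 was 0.639 ± 0.025 in DMSO, 0.568 ± 0.013 with AKTi, 0.564 ± 0.018 with EZH2i and 0.727 ± 0.022 with the combination, whose libraries were above all others.

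SLC6A9 (ENSG00000196517, chr1:43991500-44031467, minus strand), or GlyT1, imports glycine and had the largest rise of the 10 in the combination. It stood at 54.5, 50.8 and 56.0 CPM in DMSO and 57.4, 58.2 and 55.1 with AKTi. With EZH2i it stood at 20.4, 21.7 and 24.3 CPM and with the combination at 109.9, 119.5 and 108. The EZH2i libraries were the lowest, DMSO and AKTi overlapped, and the combination libraries stood far above. SLC6A9 was 2.42-fold lower with EZH2i (log2 fold change -1.27 ± 0.076 SE, adjusted p = 4.5e-17) and 2.09-fold higher with the combination (log2 fold change 1.06 ± 0.068 SE, adjusted p = 1.4e-16). The combination was 5.05-fold above EZH2i (log2 fold change 2.34 ± 0.074 SE, adjusted p = 9.4e-25), rank 48 of 16646 from the top, and the interaction term was 2.26 (adjusted p = 2.4e-19). With AKTi alone its log2 fold change was 0.079 (95% confidence interval -0.065 to 0.22). CCDC24 and a long noncoding RNA overlap SLC6A9 on the other strand, with up to 236 and 103 counts against 305 or more for SLC6A9, and the strand setting of the counting is not given in the sources used here.

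Other amino acid carriers moved in both directions. Of 43 further amino acid carriers, of the same and other families, 23 passed the filter. The list was not confined to carriers of the plasma membrane, and SLC38A9 is also among the amino acid sensing genes below. With EZH2i 12 were higher and 5 lower (32.6% and 31.5% of all genes), with a median log2 fold change of 0.53 against 0.03 for all genes. With AKTi 6 were higher and 3 lower (20.6% and 21.9%, median -0.0075 against 0.01). With the combination 10 were higher than DMSO and 6 lower (38.0% and 35.2%, median 0.27 against 0.06). The combination against EZH2i gave 3 higher and 9 lower (21.1% and 25.7%, median -0.29 against -0.01), and against AKTi 10 higher and 6 lower (32.1% each, median 0.28 against 0.04). EZH2i against AKTi gave 10 higher and 2 lower (25.4% and 25.1%, median 0.32 against 0.02). The interaction was negative for 4, a share near the 17.5% of all genes, and positive for 0 against 10.7% (0 at an unadjusted p-value under 0.05 and 0 by DESeq2), with a median of -0.26 against -0.05. Without combination replicate B, EZH2i A or EZH2i B the 3 higher against EZH2i became 1, and without combination B or AKTi C, or when genes were kept from 1 count in total or only from 10 in each library, the 10 higher against AKTi became 6.

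Among these other carriers, SLC1A3 (EAAT1), a glutamate and aspartate importer, fell most in the combination. SLC1A3 stood at 8.23 ± 1.0 CPM in DMSO, 2.72 ± 0.90 with AKTi, 2.43 ± 0.63 with EZH2i and 0.570 ± 0.49 with the combination (log2 fold change -3.86 ± 0.34 SE, adjusted p = 8.5e-13 for the combination against DMSO). Its combination libraries held 2 to 18 counts, so the size of that fall rests on few reads. SLC16A10, an aromatic amino acid carrier, went from 35.6 ± 0.27 to 8.39 ± 0.99 CPM (log2 fold change -2.08 ± 0.10 SE, adjusted p = 8.4e-20). SLC7A2, a cationic carrier like SLC7A1, went from 62.5 ± 5.1 CPM in DMSO to 16.1 ± 1.6 with EZH2i and 15.8 ± 0.69 with the combination (log2 fold change -1.98 ± 0.091 SE, adjusted p = 5.9e-21). SLC7A2 thus stayed low where SLC7A1 did not, with a combination against EZH2i difference of -0.033 (adjusted p = 0.82) beside 1.38 for SLC7A1. The largest rises were in genes that were barely expressed. SLC6A19, a neutral carrier of gut and kidney, had 2 counts in the DMSO arm, 123 with EZH2i and 35 with the combination, ratios of 56.3 (95% exact counting interval 15.3 to 470.2) and 16.1 (4.13 to 138). SLC38A3, a glutamine carrier, and SLC6A17, a neuronal neutral carrier, reached 0.570 ± 0.19 and 1.71 ± 0.28 CPM in the combination (adjusted p = 0.017 and 0.020 against DMSO). Counting intervals cover counting error only.

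**Figure D5:**
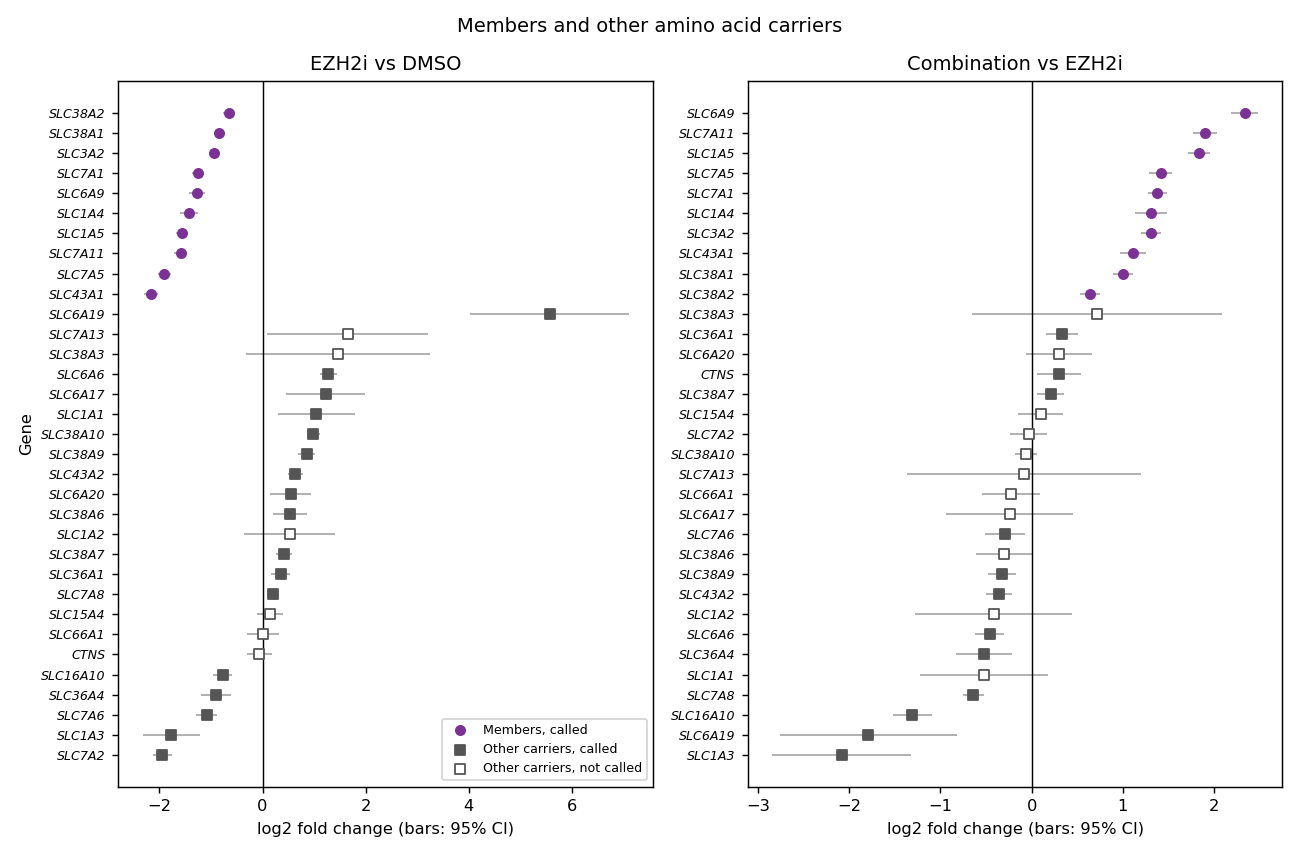
Fitted log2 fold changes with 95% confidence intervals of the 10 transporters (circles) and 23 other amino acid carriers (squares), for EZH2i against DMSO and for the combination against EZH2i, filled where the adjusted p-value is under 0.05. The circles lie on the left in the first panel and on the right in the second, while 12 of 23 squares are filled on the right of zero in the first and 9 on the left in the second.

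Among known regulators of carrier genes, ATF4 fell with each single agent and rose with the combination. ATF4, the transcription factor of the amino acid response, stood at 714 ± 10.6 CPM in DMSO, 627 ± 6.7 with AKTi, 421 ± 9.8 with EZH2i and 1065 ± 32.9 with the combination. Its log2 fold changes against DMSO were -0.19, -0.76 and 0.58 (adjusted p = 0.0021, 5.6e-16 and 4.6e-13), with an interaction of 1.53 (adjusted p = 3.8e-19). MYC, which binds E-boxes, rose with AKTi and fell with EZH2i and the combination. Its levels were 247 ± 7.1 CPM in DMSO, 404 ± 15.9 with AKTi, 95.4 ± 6.2 with EZH2i and 198 ± 7.8 with the combination, with log2 fold changes of 0.71, -1.37 and -0.32 (adjusted p = 3.1e-13, 1.8e-21 and 3.7e-06) and an interaction of 0.34 (adjusted p = 0.0010). NFE2L2, the factor of the antioxidant response, was lower in every treated arm, with log2 fold changes of -0.27, -0.40 and -0.23 (adjusted p = 0.0010, 2.0e-06 and 0.0018), with an interaction of 0.43 (adjusted p = 0.00043). EIF2AK4, which encodes GCN2, rose with AKTi by 0.22 (adjusted p = 0.0052), though the AKTi and DMSO libraries overlapped. EIF2AK4 differed from DMSO by 0.010 with EZH2i and 0.0094 with the combination (adjusted p = 0.90 and 0.90). Its interaction was -0.22 (adjusted p = 0.065). These are transcript levels, and the activity of the proteins was not measured in the libraries.

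The genes that sense amino acids for mTORC1 and GCN2 were spread in both directions. Of 28, 27 were tested, and 12 were higher and 7 lower with EZH2i (32.6% and 31.5% of all genes, median 0.13 against 0.03). With AKTi the counts were 7 and 4 (20.6% and 21.9%, median 0.07), and with the combination 12 and 7 (38.0% and 35.2%, median 0.08). The combination gave 7 higher and 8 lower against EZH2i (21.1% and 25.7%, median -0.05) and 12 and 9 against AKTi (32.1% each, median 0.05). EZH2i gave 10 higher and 5 lower against AKTi (25.4% and 25.1%, median 0.10), and the interaction was positive for 2 and negative for 6 (10.7% and 17.5%, median -0.08). SESN1, a sestrin that restrains mTORC1, rose most in the combination, from 30.7 ± 3.2 to 288 ± 7.3 CPM (log2 fold change 3.22 ± 0.069 SE, adjusted p = 8.4e-31). RRAGD, a Rag GTPase that brings mTORC1 to the lysosome, rose by 2.08 (adjusted p = 7.3e-17). NPRL2, a subunit of the GATOR1 complex that inactivates Rag GTPases, changed by -1.00 (adjusted p = 4.0e-13), and SAR1B, which has been described as a leucine sensor, by -0.66 (adjusted p = 1.2e-12). Mean levels of SESN1, RRAGD, NPRL2 and SAR1B were 30.7, 4.98, 46.4 and 188 CPM in DMSO. They were 47.0, 8.42, 39.6 and 138 CPM with AKTi, and 195, 13.3, 26.4 and 161 with EZH2i. Combination means were 288, 21.1, 23.2 and 119 CPM, so these changes were partly present with single agents.

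Outside the 10 transporters, the genes whose log2 CPM followed each of them most closely over the 12 libraries are given as a description, with Pearson's r, since libraries of 1 arm share their treatment. SLC7A5 was followed by GPT2 (r = 0.994), an alanine aminotransferase, and PHGDH (0.984), the first enzyme of serine synthesis. SLC3A2 was followed by SARS (0.993), a seryl-tRNA synthetase, and STC2 (0.992), and SLC6A9 by PCK2 (0.990) and AARS (0.988). SLC7A11 was followed by CEBPG (0.983) and TRIB3 (0.982), SLC1A4 by TNFRSF10B (0.972) and TRIB3 (0.971), and SLC1A5 by ALDH3A2 (0.981) and ASNS (0.980), the asparagine synthetase. SLC7A1 and SLC38A2 had the same 2 neighbours outside the 10, BCAT1 (0.987 and 0.981) and CCNG1 (0.983 and 0.982). SLC38A1 was followed by TTC39B (0.986) and CARS (0.979), and SLC43A1 by EPHX1 (0.986) and AXIN1 (0.985). Within the 10, SLC7A1 and SLC1A5 followed each other at r = 0.992, and SLC1A5 and SLC38A1 at 0.982, closer than some of these neighbours.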

How the data were processed

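Transcripts of C4.2B cells were read by polyA RNA-seq in 12 libraries, 3 (replicates A, B and C) for each of 4 arms. The authors aligned reads to hg38 with STAR and counted them on genes with HTSeq, and deposited the raw count of each gene in each library. The labels give no versions, and the gene annotation and strand setting are not given in the sources used here, so reads of overlapping genes may be split. The authors normalized with DESeq2 in a separate table, which was not used.

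Genes were filtered with filterByExpr of edgeR 4.0.16 in R 4.3.3 (minimum count 10, minimum total 15) and scaled by TMM. One mean per arm was fitted over all 12 libraries by edgeR's quasi-likelihood test, with p-values adjusted by Benjamini-Hochberg over all 16646 genes at a threshold of 0.05. The interaction is the combination minus both single agents plus DMSO. RPKM used the deposited gene length, and log2 CPM a prior count of 2. Fold changes at depths of 14133755 to 22276417 counts carry little sampling noise for the 10 genes.

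The 10 genes and the lists (other carriers, regulators of the carriers, amino acid sensing, and markers of luminal, basal, neuroendocrine, fibroblast and leukocyte cells) were chosen with earlier results of these data known. Named were all 10 genes, the 3 largest and 3 smallest changes among other carriers called in the combination against DMSO, the regulators (1 is not reported here), the 2 largest and 2 smallest such sensing genes, and the 2 genes outside the 10 most correlated with each transporter. Luminal markers summed to 3866 to 3995 CPM in DMSO, 5998 to 6177 with AKTi, 6691 to 6922 with EZH2i and 8663 to 8849 with the combination. The 9 markers did not all move alike against DMSO. With AKTi 8 were higher and 1, KRT18, lower (20.6% and 21.9% of all genes). With EZH2i 7 were higher and 0 lower (32.6% and 31.5%). With the combination 8 were higher and 1, HOXB13, lower (38.0% and 35.2%). The summed maximum over libraries was 0.368 CPM for basal, 2.98 for neuroendocrine and 1.65 for leukocyte markers.

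Alternatives were DESeq2 1.42.0, its size factors in edgeR, library size only, upper quartile, 2 other filters, leaving out each library, a fit to the arms compared alone and a replicate block. The steps were tested on simulated data. Promoter windows came from RefSeq (GRCh38.p14), read with Python 3.11.15, and exons from GENCODE.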

Additional observations from a re-analysis of the deposited data

Results flagged for a closer look

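For all 10 transporters the effect of AKTi differed between tazemetostat-treated and vehicle-treated cells, by the interaction term of edgeR's quasi-likelihood fit with Benjamini-Hochberg adjustment. The difference was 2.52 on the log2 scale for SLC7A11, 2.26 for SLC6A9, 1.94 for SLC1A5, 1.91 for SLC1A4 and 1.68 for SLC7A5. It was 1.58 for SLC3A2, 1.40 for SLC7A1, 1.15 for SLC38A1, 0.98 for SLC43A1 and 0.61 for SLC38A2. The largest adjusted p-value among the 10 was 4.6e-08, for SLC38A2. For SLC7A11, SLC1A4, SLC3A2, SLC7A5 and SLC38A1 AKTi alone lowered the level in vehicle-treated cells, whereas in tazemetostat-treated cells the level with AKTi was higher, by 1.91, 1.31, 1.31, 1.42 and 1.00. The call for SLC38A1 with AKTi alone was lost in 5 alternatives.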

How the results depend on the processing

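Calls of the 10 transporters for EZH2i against DMSO, the combination against EZH2i, EZH2i against AKTi and the interaction held under all alternatives run (for the interaction, the fit to the arms compared alone was not run). Elsewhere the cause of each change was not tested. By library size only and by upper quartile, the transporters higher with AKTi than DMSO went from 0 to 1 and those lower in the combination than AKTi from 2 to 1, and signs turned for SLC7A1 with AKTi (0.043 and 0.042), for SLC1A4 (0.083 and 0.071) and SLC38A2 (0.18 and 0.17) in the combination against DMSO, and for SLC38A2 against AKTi (0.092 and 0.080). With at least 10 counts in every library SLC38A2 was 0.049 against DMSO and 0.020 against AKTi, and the other carriers higher in the combination than AKTi went from 10 to 6, as with at least 1 count. With only the arms compared, 1 transporter was higher with AKTi. With each library left out, that count ran from 0 to 1, the other carriers higher against AKTi from 6 to 10 and against EZH2i from 1 to 3. SLC7A1 with AKTi ran from -0.060 to 0.016, SLC38A2 with AKTi from -0.0014 to 0.031, and SLC38A2 with the combination from -0.078 to 0.015. Same-letter libraries did not deviate together (r from -0.058 to 0.069 over 18 pairs, 3 of them best with their own letter), so the letters were not treated as pairs. A replicate block left every call of the 10 genes in place, with 10 of 10 lower with EZH2i, 6 higher and 2 lower with the combination against DMSO, and 10 positive interactions. Depth limits SLC6A19, SLC38A3 and SLC6A17, which had few counts, and SLC1A3, which had few in the combination.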
